A study of Mus musculus with 4 samples.

Results

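The genes described here are the keratins and keratin-associated proteins that are not the usual keratins of the mammary epithelium. They were taken by symbol, as Krt or Krtap followed by a digit, without the mammary luminal and basal keratins Krt5, Krt7, Krt8, Krt14, Krt15, Krt17, Krt18 and Krt19. The rule found 72 of the 17097 genes with a probe set naming a single gene, 34 keratins and 38 keratin-associated proteins, and each gene is given by its brightest probe set.

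The study set global knockout mice, Mt2-mmp(-/-), against their wild-type littermates, Mt2-mmp(+/+). Mt2-mmp encodes a membrane-type matrix metalloproteinase that is also called Mmp15, and all mice were on a congenic C57Bl/6J background. Total RNA came from the whole inguinal mammary gland, with its epithelium left in place, at postnatal day 10, and was hybridised to Affymetrix arrays. There were 2 arrays per genotype, 4 in all, called knockout 1, knockout 2, wild type 1 and wild type 2 after their labels. The labels call them biological replicates without saying whether an array is 1 mouse or a pool, so the p-values measure the spread between these arrays. The knockout is global, so every cell type of the gland and of any adjoining tissue carries it. Values are RMA log2 expression, in which a difference of 1 is a 2-fold ratio. Levels of Mmp15 were not used here, so they give no check of the genotype labels.

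Keratins are intermediate filament proteins that assemble as pairs of a type I chain and a type II chain. Type I genes lie mainly on mouse chromosome 11 and type II genes on chromosome 15, and each epithelial layer uses its own pairs. The hair follicle has separate sets for the inner root sheath, which moulds the growing hair, and for the cortex and cuticle of the hair shaft, where keratin-associated proteins crosslink the filaments. The suprabasal epidermis uses another set, led by the Krt1 and Krt10 pair.

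Promoter sequences are shown for 5 follicle genes that differed widely between arrays of a genotype, picked to cover the root sheath, the shaft and the associated proteins, and for Krt10, an epidermal keratin that did not. The sequences are RefSeq's, on GRCm38.p6, all on the minus strand, and each runs 5′ to 3′ from 70 bases before the annotated start to the first 30 bases of the transcript. They lie at chr11:99322922-99323021 for Krt25, chr15:101802331-101802430 for Krt73, chr11:100050522-100050621 for Krt31, chr16:88962844-88962943 for Krtap16-3, chr16:89571154-89571253 for Krtap11-1 and chr11:99389335-99389434 for Krt10. Capitals mark the letters TATAAA.
Krt25: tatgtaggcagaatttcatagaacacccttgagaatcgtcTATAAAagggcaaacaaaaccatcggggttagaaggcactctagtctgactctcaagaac
Krt73: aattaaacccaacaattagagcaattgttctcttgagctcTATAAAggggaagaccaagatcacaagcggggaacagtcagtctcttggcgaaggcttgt
Krt31: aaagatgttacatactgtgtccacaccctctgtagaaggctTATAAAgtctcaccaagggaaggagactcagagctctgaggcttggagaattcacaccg
Krtap16-3: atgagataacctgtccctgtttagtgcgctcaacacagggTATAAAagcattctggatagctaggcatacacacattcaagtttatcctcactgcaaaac
Krtap11-1: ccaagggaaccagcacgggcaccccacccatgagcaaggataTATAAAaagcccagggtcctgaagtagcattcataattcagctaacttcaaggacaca
Krt10: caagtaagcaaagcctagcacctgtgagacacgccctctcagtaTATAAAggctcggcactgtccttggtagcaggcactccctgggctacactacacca
The first capital stands 26 to 30 bases before the start in these 6 promoters, the usual place of a TATA box. Of the 72 genes, 57 had a RefSeq promoter window of 300 bases, 58 windows in all. TATAAA on the gene's strand, 20 to 40 bases before the start, was in 31 of the 58 windows (53.4%), against 1.99% of all 32851 windows. By class it was in 4 of 6 inner root sheath, 2 of 5 hair shaft and 22 of 36 keratin-associated protein windows. For keratins of other epithelia it was in 2 of 6 windows, and for epidermal keratins in 1 of 5, that of Krt10. All 6 promoters printed hold the motif, so they do not represent the windows without it. The motif did not separate the genes by their behaviour on the arrays: it was in 10 of the 20 windows of genes that differed by at least 2-fold in both genotypes, as described next, and in 21 of the 38 other windows. CTTTGA on either strand, the core letters bound by LEF1 and TCF factors, was in 10 of those 20 windows and in 4 of the other 38, against 5257 of all 32851 windows. Both motifs were chosen after the values were seen, and many of these genes are tandem copies with shared sequence, so the counts describe letters only.

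Most inner root sheath keratins and part of the hair shaft keratins and keratin-associated proteins were higher on knockout 1 and wild type 2 than on knockout 2 and wild type 1. Each genotype thus held a high and a low array for these genes. Of the 72 genes, 25 (34.7%) were at least 1 log2 unit higher on knockout 1 than on knockout 2, against 0.427% of all genes, and 0 were lower by as much, against 0.0409%. Between the wild-type arrays, 24 genes (33.3%) were at least 1 log2 unit higher on wild type 2 than on wild type 1, against 0.427% of all genes, and 0 were lower by as much, against 0.164%. Both differences were met by 23 genes (31.9%), against 0.322% of all genes. Asking for 2 log2 units left 15 genes (20.8%) between the knockout arrays, against 0.175% of all genes, and 14 (19.4%) between the wild-type arrays, against 0.152%. The SD within a genotype was at least 1 for 22 genes (30.6%), against 0.304% of all genes. These are differences of 1 array from 1 array, so they have no test. By class, both differences were met by 5 of 6 inner root sheath keratins, 5 of 10 hair shaft keratins, 0 of 10 epidermal keratins, 0 of 8 keratins of other epithelia and 13 of 38 keratin-associated proteins.

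Background was read from the array's 23 nonspecific control probe sets, whose 95th percentile lay between 4.49 and 4.56 on the 4 arrays. Above it stood 45 of the 72 genes on knockout 1 and 45 on wild type 2, but 23 on knockout 2 and 24 on wild type 1. On every array 21 genes were above it, and 26 were above it on none. A difference from a value below the controls has no exact size, so the count was repeated with such values raised to the controls' 95th percentile of their array. Then 18 of the 72 genes (25.0%) met both differences, against 0.263% of all genes: 5 inner root sheath keratins, 5 hair shaft keratins and 8 keratin-associated proteins. In whole tissue, fewer cells of a type and less RNA per cell cannot be told apart.

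**Figure D1:**
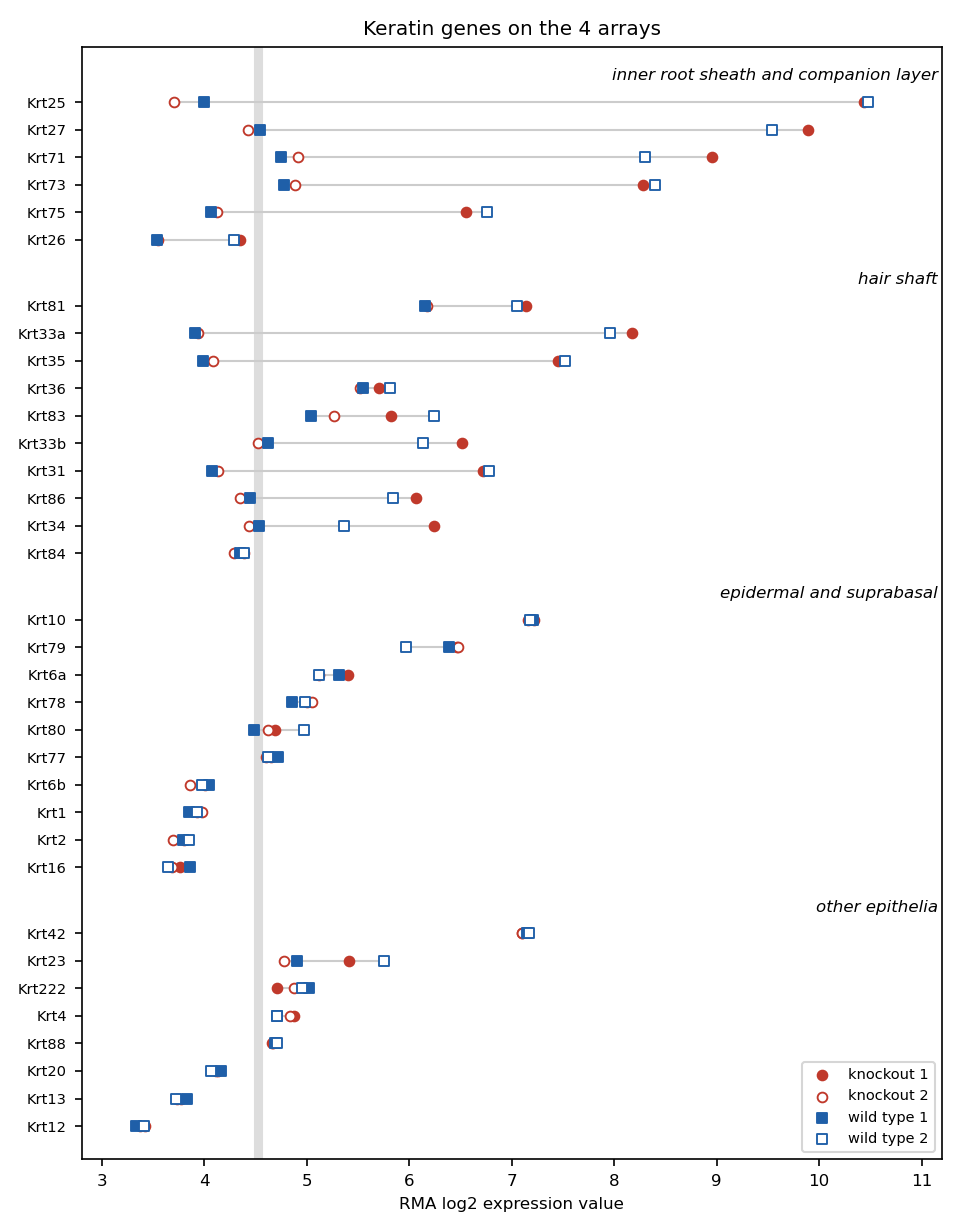
RMA log2 expression value (x axis) of the 34 keratins on each of the 4 arrays, by class; circles are knockout, squares wild type, filled for replicate 1 and open for replicate 2, and the grey band is the range over arrays of the 95th percentile of the nonspecific controls, 4.49 to 4.56. Most inner root sheath and several hair shaft keratins spread widely with knockout 1 and wild type 2 to the right, while the 10 epidermal keratins keep their 4 points close together.

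The inner root sheath keratins held the widest differences. Krt25, a type I keratin of all inner root sheath layers, was at 10.44 on knockout 1, 3.70 on knockout 2, 3.99 on wild type 1 and 10.47 on wild type 2. The low array of each genotype was below the controls' 95th percentile, and measured from that percentile the high array stood at least 60.8-fold higher in knockout and at least 63.1-fold higher in wild type. Its type I relative Krt27 was at 9.90 on knockout 1, 4.43 on knockout 2, 4.54 on wild type 1 and 9.55 on wild type 2. The genotypes overlapped fully for both genes, since each genotype held a high and a low array.

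The type II partners followed the same order of arrays. Krt71, the type II keratin of the inner root sheath whose mutation gives curly coats, was at 8.96 on knockout 1, 4.91 on knockout 2, 4.75 on wild type 1 and 8.30 on wild type 2. Krt73, of the inner root sheath cuticle, was at 8.29 on knockout 1, 4.89 on knockout 2, 4.78 on wild type 1 and 8.40 on wild type 2. Both type II genes stayed above the controls on the low arrays. Krt75, the keratin of the companion layer beside the inner root sheath, was at 6.55, 4.13, 4.06 and 6.76 on knockout 1, knockout 2, wild type 1 and wild type 2. Krt26 was below the controls on every array, at 4.35, 3.55, 3.54 and 4.28 in that order. Values below the controls carry no order, so no difference is read for Krt26. The class median was 8.62 on knockout 1, 4.28 on knockout 2, 4.30 on wild type 1 and 8.35 on wild type 2.

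The hair shaft keratins showed the pattern in part. Krt33a, a type I hair keratin of the cortex, was at 8.17 on knockout 1, 3.94 on knockout 2, 3.91 on wild type 1 and 7.96 on wild type 2. Krt35, a type I hair keratin that appears early in the forming shaft, was at 7.45, 4.09, 3.99 and 7.52 on the same arrays in that order. Krt31, another cortex keratin, was at 6.72, 4.14, 4.07 and 6.78. For these 3 genes the low array of each genotype was below the controls' 95th percentile, and the high array stood at least 4.61-fold above that percentile in knockout and 4.88-fold in wild type. Krt33b was at 6.52 on knockout 1, 4.52 on knockout 2, 4.62 on wild type 1 and 6.13 on wild type 2. Krt86, a type II hair keratin, was at 6.07, 4.35, 4.45 and 5.84 in the same order. Krt33a and Krt33b are near-identical neighbours, as are Krt81, Krt83 and Krt86, so how their signal divides between copies is uncertain.

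The remaining 5 hair shaft keratins missed the 2-fold mark in at least 1 genotype. Krt81 was at 7.14 on knockout 1, 6.17 on knockout 2, 6.16 on wild type 1 and 7.06 on wild type 2, just short of the mark with differences of 0.97 and 0.90. Krt34 passed it between the knockout arrays only, at 6.24, 4.44, 4.53 and 5.36 in that order. Krt83 passed it between the wild-type arrays only, at 5.82, 5.26, 5.04 and 6.24. All 3 were highest on knockout 1 and wild type 2. Krt36 was at 5.71, 5.52, 5.54 and 5.81, and Krt84, a type II hair keratin, stayed between 4.29 and 4.39, below the controls. The class median was 6.38 on knockout 1, 4.39 on knockout 2, 4.49 on wild type 1 and 6.19 on wild type 2.

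The keratin-associated proteins that met both differences lay mostly on chromosome 16. Of the 19 measured there, 12 met both, against 1 of 13 on chromosome 11. The count was 0 of 4 on chromosome 7 and 0 for the single genes on chromosomes 10 and 1. Among the 12, Krtap19-2 was below the controls on every array. With the controls as a floor, 8 keratin-associated proteins met both differences. They were Krtap1-5 on chromosome 11, and Krtap11-1, Krtap13-1, Krtap14, Krtap15, Krtap16-3, Krtap19-9b and Krtap22-2 on chromosome 16. Krtap11-1 was at 8.72 on knockout 1, 3.97 on knockout 2, 3.87 on wild type 1 and 9.29 on wild type 2. Krtap15 was at 8.30, 3.86, 3.92 and 8.55 in the same order. Both ran from below the controls to well above them within each genotype. Krtap13-1 was at 6.77 on knockout 1, 4.49 on knockout 2, 4.29 on wild type 1 and 7.13 on wild type 2. Krtap22-2 was at 6.83, 4.08, 4.13 and 6.66 in that order. Krtap16-3 was at 6.47, 3.51, 3.41 and 6.57. Krtap14 was at 6.63, 3.89, 4.08 and 6.58, again with 1 high and 1 low array in each genotype.

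Krtap1-5 was the gene on chromosome 11 that met both differences, at 5.79 on knockout 1, 4.02 on knockout 2, 4.08 on wild type 1 and 5.81 on wild type 2. Krtap17-1 was at 5.26, 4.35, 4.26 and 5.18 in the same order and Krtap3-1 at 5.83, 5.02, 5.39 and 5.88, both highest on knockout 1 and wild type 2 but short of the mark. Krtap9-3 was below the controls on every array. The median difference of the 13 genes was 0.34 between the knockout arrays and 0.30 between the wild-type arrays, against 1.49 and 1.53 for the 19 on chromosome 16. Most of the chromosome 11 genes were below the controls on every array, where a lower level would not be detectable. Of the 4 Krtap5 genes of chromosome 7, an ultra-high-sulphur family, Krtap5-1 had differences of -0.06 and 0.09. Krtap5-2, Krtap5-4 and Krtap5-5 were below the controls on every array, so no difference is read for them.

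Some probe sets of this family were nearly level over the arrays. Krtap21-1 stayed between 6.95 and 7.09 and Krtap12-1 between 6.45 and 6.54 on the 4 arrays. Both have a dimmer probe set, which for Krtap21-1 was at 4.58 on knockout 1, 4.46 on knockout 2, 4.33 on wild type 1 and 4.94 on wild type 2. Krtap19-1 was flat in the probe set used, between 4.34 and 4.39, while its dimmer probe set was at 4.44, 3.67, 3.59 and 4.61 in that order. Of these Krtap19-1 values, only that of the dimmer probe set on wild type 2 was above the controls, so the levels have no order otherwise. Both probe sets of Krtap6-1 were highest on knockout 1 and wild type 2: the brighter was at 6.31, 3.74, 3.43 and 5.39, and the dimmer at 5.06, 4.03, 4.05 and 5.21. Keratin-associated protein genes are short tandem copies, so a probe set can read several of them.

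**Figure D2:**
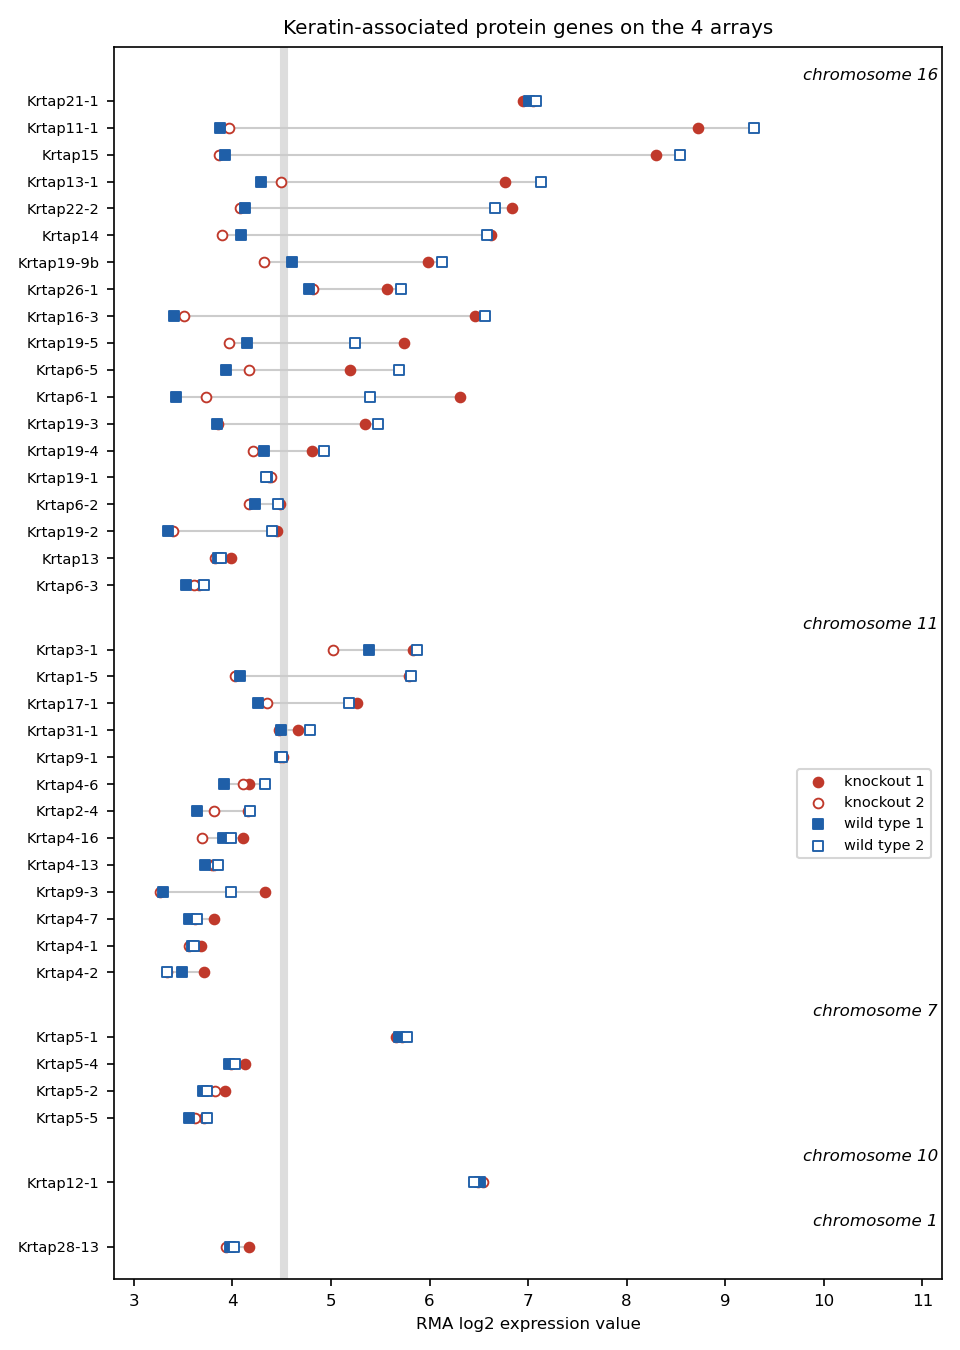
RMA log2 expression value (x axis) of the 38 keratin-associated protein genes on each of the 4 arrays, by chromosome, with symbols and grey control band drawn the same way for circles (knockout) and squares (wild type), filled for replicate 1 and open for replicate 2. On chromosome 16, 12 of 19 genes have knockout 1 and wild type 2 at least 1 unit to the right of the other array of their genotype.

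The epidermal keratins did not share the pattern. Krt10, the type I keratin of the suprabasal epidermis, was at 7.16 on knockout 1, 7.22 on knockout 2, 7.20 on wild type 1 and 7.17 on wild type 2. Its partner Krt1 was below the controls, at 3.92, 3.98, 3.85 and 3.93 in that order. The 4 arrays of Krt10 thus lay between 7.16 and 7.22, while no difference is read for Krt1. Krt79, which marks the upper hair canal and sebaceous duct, was at 6.47, 6.47, 6.39 and 5.97. Krt6a, an inducible keratin that the companion layer also uses, was at 5.40, 5.11, 5.31 and 5.12. Krt80 was at 4.69, 4.62, 4.48 and 4.97. Krt78 stayed between 4.85 and 5.05 and Krt77 between 4.60 and 4.72, while Krt2, Krt6b and Krt16 were below the controls on all arrays. The largest within-genotype SD among the 10 epidermal keratins was 0.247, for Krt80, against 4.68 for Krt25. Krt1, Krt2, Krt6b and Krt16 add nothing to this contrast, since values below the controls carry no order.

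Among keratins of other epithelia, Krt23 alone came near the follicle pattern. It was at 5.41 on knockout 1, 4.78 on knockout 2, 4.90 on wild type 1 and 5.75 on wild type 2. The differences were 0.63 and 0.85 and so under 2-fold. Krt42, read by a probe set that can match related transcripts, was at 7.10, 7.10, 7.15 and 7.17 in that order. Krt4, Krt12, Krt13, Krt20, Krt88 and Krt222 differed by at most 0.16 between arrays of a genotype. Of the 7 mammary keratins measured and left out of the rule, 0 met both differences. Krt5, a basal cell keratin, was at 7.49, 7.03, 7.20 and 7.69, highest on the same arrays as the follicle keratins by 0.46 and 0.49. Krt15 had differences of 0.29 and 0.29 the same way. Krt14, the partner of Krt5, was at 7.90, 7.87, 8.10 and 8.22.

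**Figure D3:**
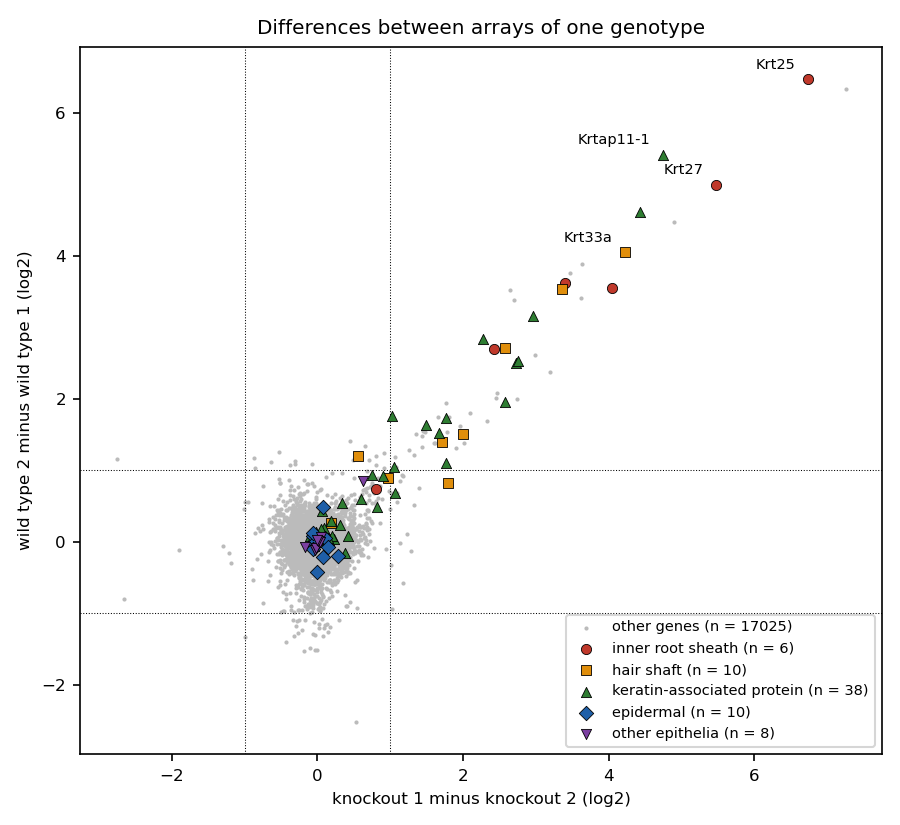
Difference between the arrays of a genotype for each gene, in RMA log2 units. The x axis is knockout 1 minus knockout 2 and the y axis is wild type 2 minus wild type 1. The 72 genes are in colour by class and the 17025 other genes in grey. Inner root sheath keratins reach 6.74 and 6.48 in the upper right, and the epidermal keratins sit around 0 on both axes.

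No difference between knockout and wild type was called in the 72 genes. With limma and Benjamini-Hochberg adjustment over all 17097 genes, 0 of 72 passed an adjusted p of 0.05, against 0.00585% of all genes, and 0 of 72 passed an unadjusted p of 0.05, against 7.01% (3.63% higher and 3.38% lower in knockout). The unadjusted count was 3 without knockout 2 and 3 without wild type 1. A difference between genotype means of at least 1 was met by 0 of 72, against 0.140%. The knockout minus wild type difference ran from -0.23 to 0.61, with a median of 0.01 against 0.00 for all genes. It was above 0 for 37 genes and below 0 for 31. For the other 4, Krt10, Krt31, Krt73 and Krtap16-3, the deposited values of both knockout arrays sum to exactly those of both wild-type arrays. Such exact ties are in 63 of all genes, with 45 and 61 for the other pairings of the arrays, so a difference of 0 here is not a measured equality.

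The precision of these differences depended on the class. The median standard error was 1.64 for the inner root sheath keratins and 0.0785 for the epidermal keratins, against 0.0800 for all genes. The first median includes Krt26 and the second Krt1, Krt2, Krt6b and Krt16, all below the controls on every array. For Krt25 the knockout minus wild type difference was -0.16 with a standard error of 2.97 and a 95% interval from -7.82 to 7.49 (limma, Benjamini-Hochberg adjusted p = 0.999). That interval is too wide to bound a genotype difference in Krt25. Leaving out 1 array moved the Krt25 value to -3.54 without knockout 1, 3.21 without knockout 2, -3.40 without wild type 1 and 3.08 without wild type 2. None of these was called, but 1 genotype then has a single array and its spread is taken from the other genotype and the prior over all genes. The median over the 72 genes moved likewise, to -0.16, 0.19, -0.19 and 0.17. For Krt10, where arrays agreed, the standard error was 0.0658.

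The smallest p-values among the keratins lay outside the follicle classes. Krt4 was higher in knockout by 0.15 (SE 0.0636, limma with Benjamini-Hochberg adjusted p = 0.729). The probe set used for Krt4 can match related transcripts, and its dimmer one had a mean of 4.48 in both genotypes. Krt222 was lower in knockout, by -0.19 (SE 0.0845, limma with Benjamini-Hochberg adjusted p = 0.729). Its dimmer probe set had means of 3.76 in knockout and 3.74 in wild type, below the controls, where values carry no order. Krt79 had a difference of 0.30 (SE 0.148, limma with Benjamini-Hochberg adjusted p = 0.747). None of these passed the test. The arrays of the genotypes did not overlap for 8 of the 72 genes (11.1%), namely Krt222, Krt4, Krt42, Krt78, Krt79, Krt88, Krtap19-1 and Krtap5-2, against 37.6% of all genes. No inner root sheath or hair shaft keratin was among these 8. Krtap19-1 and Krtap5-2 were below the controls on every array, so their lack of overlap is not read.

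**Figure D4:**
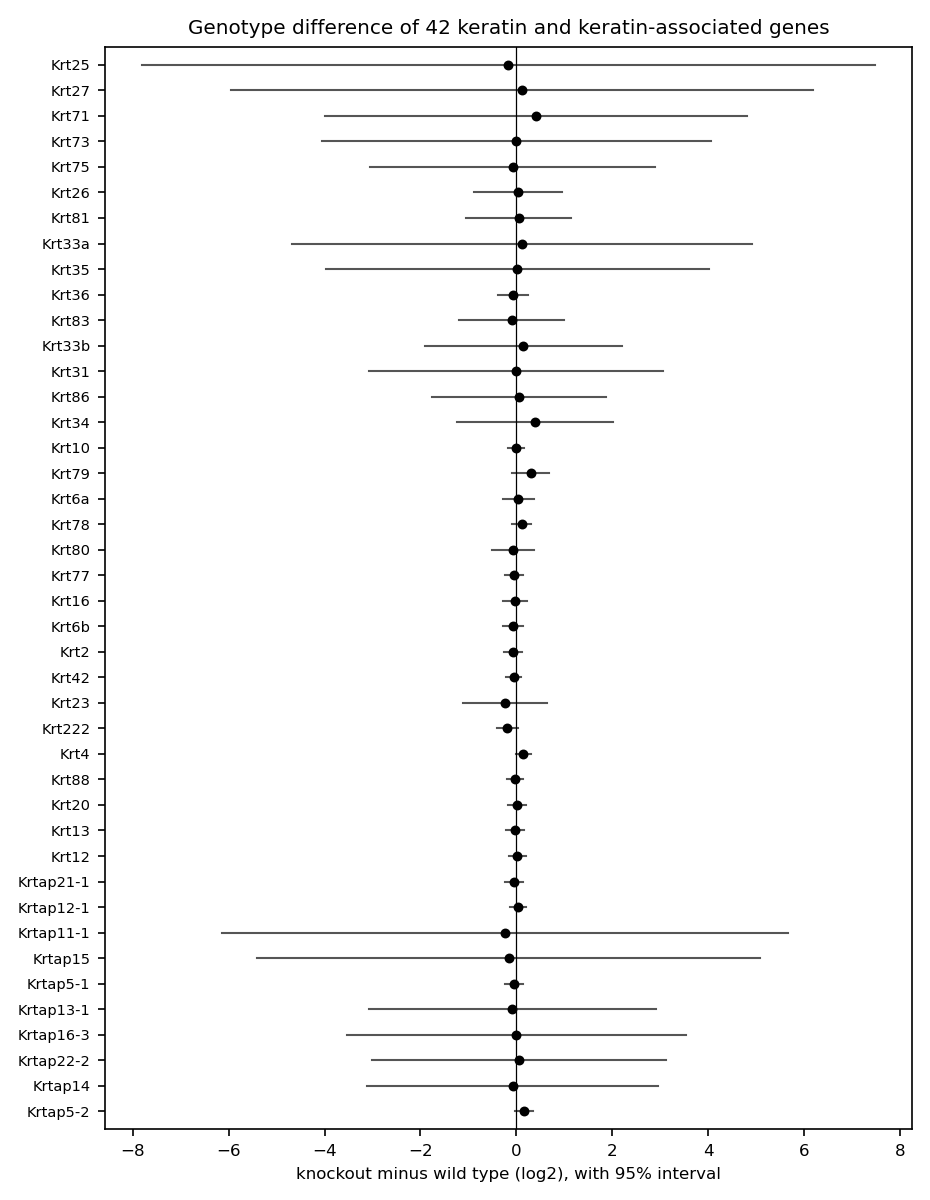
Knockout minus wild type difference (x axis, log2 units) of 42 keratin and keratin-associated protein genes, as points with bars for the 95% interval of the limma fit. The bar of Krt25 runs from -7.82 to 7.49, and every bar includes 0.

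Some other genes of the hair follicle were high on the same arrays as these keratins. Of 24 measured partners of the root sheath and shaft, 8 met both differences: Tchh, Padi3, S100a3, Prr9, Crym, Gprc5d, Fbp1 and Sprr1a. Tchh encodes trichohyalin, the granule protein of the inner root sheath, and was at 10.74 on knockout 1, 3.49 on knockout 2, 4.03 on wild type 1 and 10.37 on wild type 2. Padi3 encodes an enzyme that modifies trichohyalin. The summed level of the list, on the log2 scale, was 12.56 on knockout 1, 11.74 on knockout 2, 11.86 on wild type 1 and 12.67 on wild type 2, a sum in which the bright genes Selenbp1 and Lpar6 and, on the high arrays, Tchh weigh most. The median difference of the 24 genes was 0.33 between the knockout arrays and 0.41 between the wild-type arrays. Of 24 follicle regulators, 2 met both differences. Hoxc13, a homeobox factor that activates hair keratin genes, was at 6.78, 5.31, 5.10 and 6.63 in that order. Msx2, which acts in the hair matrix, was at 6.93, 5.48, 5.25 and 6.81. The summed level of the regulators ran from 11.42 to 11.62 over the 4 arrays, with Notch1 and Tcf7l1 weighing most, and the median differences were 0.13 and 0.18.

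Among markers of other skin cells, melanocyte genes had the larger share high on the same arrays. Of 8 melanocyte genes, Tyrp1, Dct and Mlana met both differences, and the summed level was 9.02 on knockout 1, 8.57 on knockout 2, 8.62 on wild type 1 and 9.20 on wild type 2. Of 13 dermal papilla and sheath genes, Wif1 did so, with a summed level between 10.60 and 10.68. Of 22 cornified envelope genes, 2 did so, Dsg1a and Dsc1, with summed levels of 10.59, 10.45, 10.25 and 10.58. None of the 8 sebaceous gland, 17 luminal, 10 basal or 6 adipocyte genes did so. Their summed levels lay between 13.23 and 13.31, 12.60 and 12.80, 12.93 and 13.08, and 15.11 and 15.20, sums that a few bright genes can set. The basal gene Trp63 was 1.01 higher on knockout 1 than on knockout 2, but only 0.68 higher on wild type 2 than on wild type 1. The adipocyte gene Lep went the other way in wild type, with a wild type 2 minus wild type 1 difference of -1.52. No gene of these lists passed the limma test between genotypes at a Benjamini-Hochberg adjusted p of 0.05. The part of these cell types in the keratin values was not tested.

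**Figure D5:**
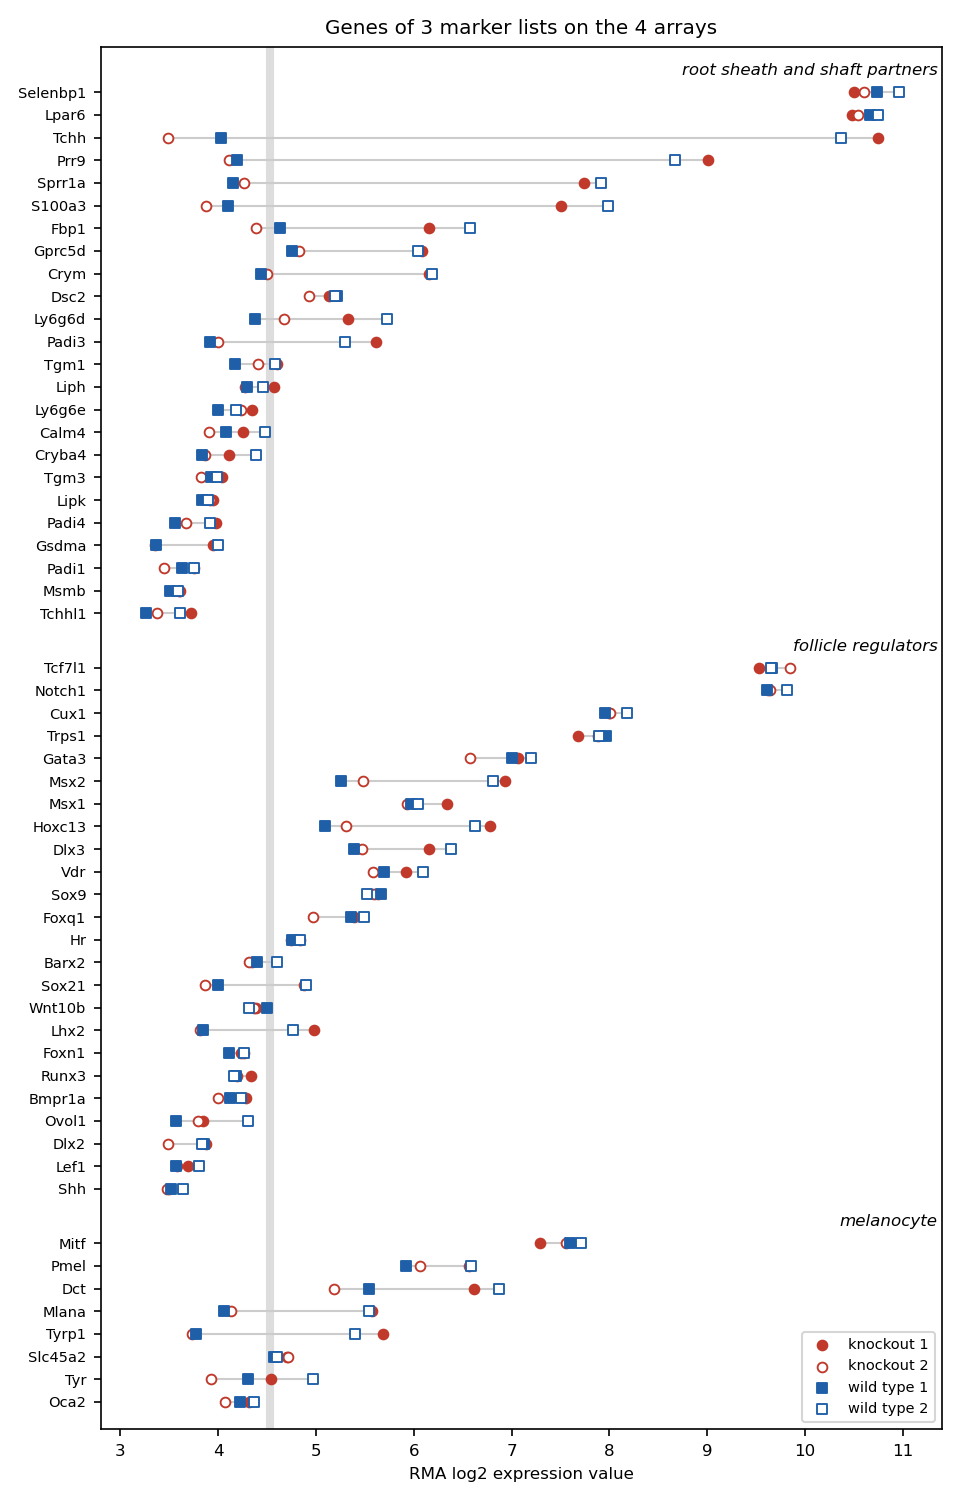
RMA log2 expression value (x axis) of all 56 measured genes of 3 marker lists on each of the 4 arrays; circles are knockout, squares wild type, filled for replicate 1 and open for replicate 2, and the grey band is the range of the controls' 95th percentile. Tchh, Prr9, Sprr1a and S100a3 spread as widely as the follicle keratins, while most follicle regulators keep their 4 points together.

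Part of the 72 genes were among the most variable of the whole array set. The median within-genotype SD was 2.59 for inner root sheath keratins, 1.05 for hair shaft keratins and 0.267 for keratin-associated proteins. It was 0.0748 for epidermal keratins and 0.0456 for keratins of other epithelia, against 0.0787 for all genes. Ranked by the smaller of the differences within knockout and within wild type, the 72 genes made up 6 of the first 10, 12 of the first 20 and 29 of the first 100. Of the 15 other genes with the largest such values, Tchh, Prr9, S100a3, Sprr1a and Fbp1 are on the partner list. Dsc1, with differences of 3.62 within knockout and 3.41 within wild type, is on the cornified envelope list. The rest are the desmosome genes Dsp and Perp, the connexin Gjb2, the serpin Serpinb5, and Dmkn, Mt4, Lgals7, S100a14 and Gm10229. Gm10229 among them lies between Krtap22-2 and Krtap6-1 on chromosome 16. Across all genes, knockout 1 correlated with wild type 2 at 0.9957 and knockout 2 with wild type 1 at 0.9974, against 0.9948 between the knockout arrays and 0.9946 between the wild-type arrays. Genes are not independent replicates, so these correlations describe the arrays only.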

How the data were processed

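Expression was measured on 4 Affymetrix arrays, 2 per genotype. The deposited values are log2 expression, and the submitters' processing notes name affy and RMA as the tools. The version of each was not given in the sources used here. By design, RMA corrects background, scales arrays by quantiles and summarises probes by median polish over arrays, which can leave exact ties between sums of arrays. Ties within 1e-06 were given no sign. The number of arrays limits the precision.

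Probe sets with a single gene symbol (28898 of 45141) were kept, and the set of highest mean over the 4 arrays stood for each of 17097 genes. The 72 genes matched RefSeq by gene ID, and 11 of them had several probe sets. Knockout was compared with wild type on all 4 arrays without covariates, by limma 3.58.1 (lmFit, eBayes, two-sided) in R 4.3.3 with Benjamini-Hochberg adjustment, threshold 0.05, and the fit was tested on simulated data. Differences within a genotype were counted at 1 log2 unit and have no test. Members, lists and thresholds were chosen with earlier results of these data known. Values are given, per class, for up to 6 genes of highest mean and 3 more of largest within-genotype SD, for the 4 of smallest p in each direction, and for some genes chosen after their values were seen. Of other genes, the 15 with the largest smaller within-genotype difference were considered. The deviations of same-numbered arrays from their genotype means correlated at -0.48 over all genes and -0.31 without the 72. Genes are not independent replicates, so this describes the arrays only. Whether the numbers pair the arrays is not in the labels and was not tested. Alternatives changed the scaling, the probe set, the filter, the prior, the block and the arrays used.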

Additional observations from a re-analysis of the deposited data

How the results depend on the processing

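Of the 72 genes, the count called between knockout and wild type at an adjusted p was 0 in each setting run: other scalings, probe sets, filter, priors and threshold, and each array left out (0 to 0). With the replicate number as a block it was 0, and with the crossed pairing, chosen after seeing the data, also 0. At an unadjusted p of 0.05 it was 2 with the crossed pairing, 3 without knockout 2, 3 without wild type 1 and 0 otherwise. Over all genes the adjusted call was 1 in the main fit and 2 with the robust prior. It was 0 with the mean of probe sets, with the replicate block and with the crossed pairing. The lowest adjusted p (limma, Benjamini-Hochberg) among the 42 genes followed was 0.424, without wild type 1. Of 471 alternative knockout minus wild type values for these genes, 53 had the other sign, over 28 genes, none of them called. Brighter genes only, which kept 9 of the 72, gave 4 genes higher on knockout 1, 4 higher on wild type 2 and 4 with a within-genotype SD of at least 1, against 25, 24 and 22; those 4 pass that filter through their high arrays, so it is no check of them. Asking for 2 log2 units gave 15 and 14, against 30 and 26 of all genes. With the controls as a floor, added after seeing the data, the counts were 21, 20 and 18. Values below the controls' 95th percentile carry no order, and 26 of the 72 genes were below it on every array.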
